A study of Mus musculus with 8 samples.

Results

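The genes described here are 10 that mark endothelial cells, the cells that line blood and lymph vessels: Pecam1, Cdh5, Tek, Tie1, Eng, Emcn, Cldn5, Esam, Egfl7 and Sox18. They were taken by symbol from the count files, which list 23238 symbols in all, and each of the 10 was found there on a single line and passed the filter on low counts. The RNA came from uterine stromal cells, the connective tissue cells of the uterus, in which reads of vessel genes can come from vessels carried along with the stroma. Reads of these genes were set side by side in 4 groups of 2 libraries each.

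Endothelial cells hold together through adherens junctions, built on the cadherin Cdh5, and tight junctions, built on the claudin Cldn5, and loosening these junctions lets plasma leave the vessel. The receptor pair Tek and Tie1 answers to angiopoietins and steadies the vessel wall, and Eng is a coreceptor for ligands of the TGF-beta and BMP families. In the uterus, estrogen is known for a rapid rise in vessel permeability, the swelling of the tissue with water and, later, the growth of vessels.

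All mice were ovariectomized (OVX), which removes the ovarian source of estrogen, and the strain is given as C57BL/6-ICR. The KO groups are Atg7d/d, with both floxed alleles of the autophagy gene Atg7 deleted by Amhr2cre in the uterine mesenchyme, and the CON groups are Atg7f/f, with floxed Atg7 and no stated Cre. Amhr2 drives the Cre in mesenchymal cells of the reproductive tract, so endothelial cells are not its described target, and no group has Cre with Atg7 intact. Each genotype was injected with estradiol (E2) or with oil, which gives the groups KO E2, KO oil, CON E2 and CON oil. The age of the mice, the E2 dose, the time after injection, the way the stroma was separated and whether mice were pooled are not given in the labels. The stated aim of the series is to find genes whose expression differs when the mesenchyme lacks Atg7, and the injections let that be asked after the hormone and without it. Nothing in the labels says that the libraries of a group come from different mice, so a p-value here reflects the spread between these samples, which may be technical.

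The libraries held 5453943 to 6944769 reads. Atg7 itself had 23 and 22 reads in KO E2 libraries, 21 and 33 in KO oil libraries, 20 and 23 in CON E2 libraries and 22 and 32 in CON oil libraries. These are reads of 3′ ends, which the files do not place relative to the deleted part of the gene, so they do not check the genotype labels. The label of stroma was checked against marker lists, given as summed levels in CPM, read counts scaled to a common library size. The 17 stromal fibroblast markers, led by Col6a3, Col1a2 and Dcn, summed to 9311 to 13646 CPM in the 4 E2 libraries and 2358 to 3611 CPM in the 4 oil libraries. The 20 epithelial markers, led by Cldn4, Cdh1 and Krt18, summed to 1771 to 4555 CPM in E2 libraries and 4914 to 18504 CPM in oil libraries. In the oil libraries the epithelial markers therefore summed to more than the fibroblast markers, with 11517 and 4914 CPM in KO oil libraries and 18504 and 6264 CPM in CON oil libraries, and markers of cells other than stroma had reads in every library.

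The reads of the 10 genes were a small share of these libraries, and that share is not a measure of all endothelial RNA. A list of 64 other blood endothelial genes summed to 6450 to 9248 CPM, but that sum is not endothelial RNA alone. It includes Cd34, which fibroblasts also carry, at 1445 to 2091 CPM in E2 libraries and 539 to 765 CPM in oil libraries. The 10 genes together took 0.155% and 0.187% of all reads in KO E2 libraries, 0.188% and 0.223% in KO oil libraries, 0.208% and 0.205% in CON E2 libraries and 0.183% and 0.257% in CON oil libraries. The lowest share, in KO E2 library 1, had a 95% Wilson interval of 0.152% to 0.159%, and the highest, in CON oil library 2, one of 0.253% to 0.261%, which cover counting error only. Summed to CPM, the genes averaged 1670 ± 209 in KO E2, 2045 ± 171 in KO oil, 2045 ± 44.8 in CON E2 and 2269 ± 383 in CON oil (SD, n = 2 each). By summed CPM the KO E2 libraries were thus the lowest pair of the series and did not overlap with the CON E2 pair. By share of reads they were also below the CON E2 pair. On that measure, however, CON oil library 1, at 0.183%, was below KO E2 library 2, at 0.187%. By both measures the CON oil pair spanned a wider range than any other group. In such bulk RNA, fewer endothelial cells and less RNA per endothelial cell cannot be told apart.

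The kit reads transcript ends, so CPM can be compared between genes without a length correction. Egfl7 led with a mean of 652 CPM over the 8 libraries (498 to 824), followed by Esam at 487 CPM (373 to 578) and Pecam1 at 371 CPM (274 to 513). These 3 genes supplied 72.2% to 80% of the reads of all 10. Cldn5 followed at 110 CPM, then Emcn at 93.9, Eng at 89.9, Cdh5 at 89.7 and Tie1 at 79.1 CPM, whose ranges over the libraries overlap, so the order among these 5 is not fixed. Tek at 18.5 CPM (9.52 to 29) and Sox18 at 16 CPM (0.788 to 73.9) were the lowest. Cldn5 and Sox18 also varied most, with a highest library 6.72 and 93.9 times the lowest, against 1.55 times for Esam and 1.65 times for Egfl7.

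**Figure D1:**
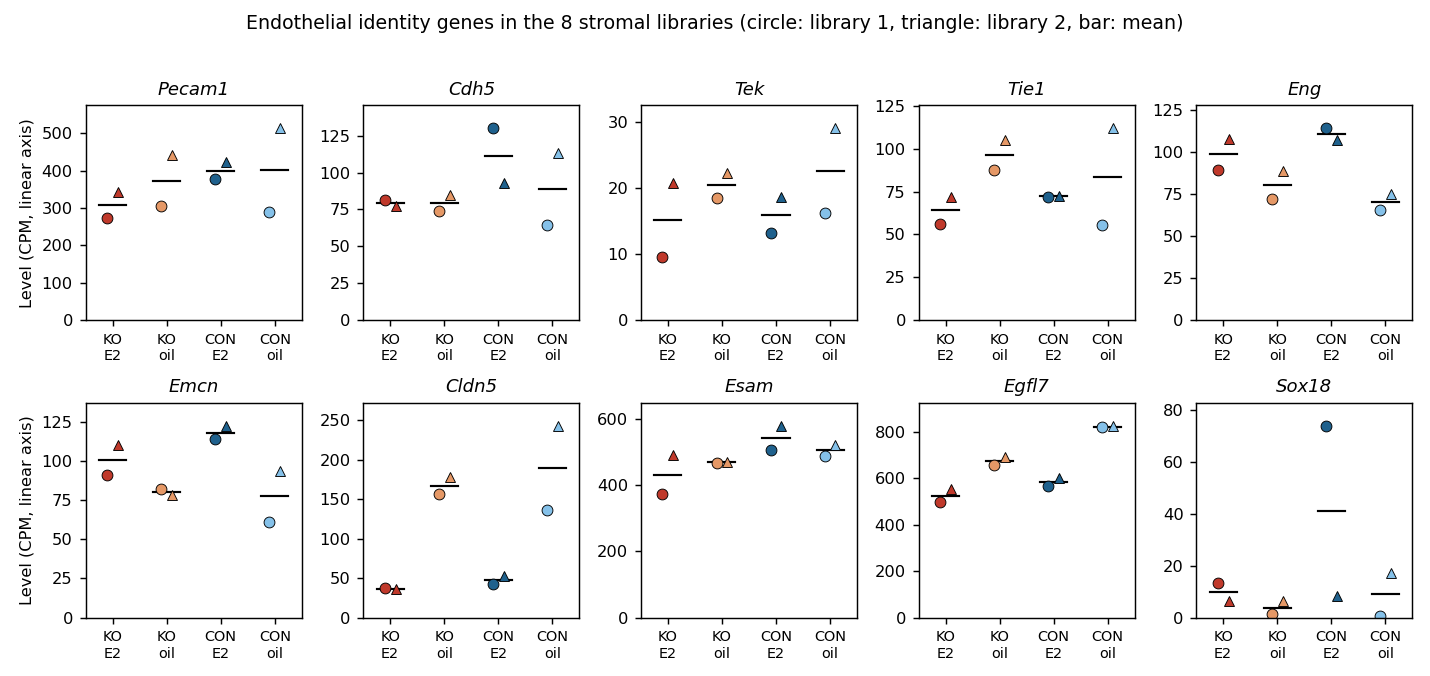
Level of each of the 10 endothelial identity genes (vertical axis, CPM, linear) in the groups KO E2, KO oil, CON E2 and CON oil; circles are library 1, triangles library 2 and bars the mean of the 2. Cldn5 is low in all 4 E2 libraries (36 to 52.6 CPM) and high in all 4 oil libraries (136 to 242 CPM), while Sox18 is high in a single library, CON E2 library 1, at 73.9 CPM.

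The E2 comparison asked whether the hormone moved these genes in stroma of either genotype. Cldn5 fell about as strongly in both genotypes, Eng rose in CON stroma, and averaged over genotypes Emcn also rose and Egfl7 fell. Pecam1, Cdh5, Tek, Tie1, Esam and Sox18 did not pass the test in these E2 comparisons; where Cdh5, Tie1 or Sox18 passed under another setting, it is given with the gene. By edgeR's quasi-likelihood test, with p adjusted over all 13347 tested genes by the Benjamini-Hochberg method at 0.05, 1 of the 10 genes was called for E2 against oil in KO, where 24.3% of all tested genes were called. In CON, 2 of 10 were called against 29.8% of all tested genes, and averaged over genotypes 4 of 10 were called against 46.3%. The median log2 fold change of the 10 genes was -0.20 in KO, 0.05 in CON and -0.07 averaged, against 0.02, 0.01 and 0.02 over all tested genes. The share called was thus no larger than among genes at large. Over the 4 E2 and the 4 oil libraries of both genotypes, 1 of 10 genes (Eng) was higher without overlap, against 24.3% of all tested genes, and 2 of 10 (Cldn5 and Egfl7) were lower without overlap, against 21.5%. Within a genotype, 2 of 10 (Eng and Emcn) were higher without overlap in KO, against 35.5% of all tested genes, and the same 2 in CON, against 33.8%; 3 of 10 (Tie1, Cldn5 and Egfl7) were lower without overlap in KO, against 32.7%, and 2 (Cldn5 and Egfl7) in CON, against 31.7%.

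Among the junction genes, Cldn5, the main tight junction claudin of endothelium, carried the change (GENCODE M21, GRCm38, chr16:18776847-18778262, plus strand). It had 37.4 and 36 CPM in KO E2 libraries, against 156 and 178 CPM in KO oil libraries. In CON stroma it had 42.3 and 52.6 CPM in E2 libraries, against 136 and 242 CPM in oil libraries. Every E2 library was below every oil library. The log2 fold change was -2.19 ± 0.28 in KO (SE, adjusted p = 0.0018) and -1.99 ± 0.27 in CON (adjusted p = 0.00174), and averaged over genotypes Cldn5 was 4.26-fold lower after E2 (adjusted p = 0.000104). These calls held without any single library. Cldn5 reads were 1.98% to 2.54% of the reads of the 10 genes in E2 libraries and 6.8% to 9.54% in oil libraries. The sum of the epithelial markers was also lower after E2. Averaged over genotypes, 10 of the 20 were called lower and 3 higher, against 22.2% and 24.1% of all tested genes. Within CON E2, Cldn5 was 42.3 CPM in library 1 and 52.6 CPM in library 2, where the epithelial markers summed to 1853 and 4555 CPM. Within CON oil, Cldn5 was 136 CPM in library 1 and 242 CPM in library 2, where they summed to 18504 and 6264 CPM. The part of epithelium in the fall of Cldn5 was not tested.

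Cdh5, the cadherin of endothelial adherens junctions, had 81.2 and 77.1 CPM in KO E2 libraries and 74.2 and 84.8 CPM in KO oil libraries, with a log2 fold change of -0.01 ± 0.27 (SE, adjusted p = 0.988). In CON stroma Cdh5 had 130 and 92.7 CPM in E2 libraries and 64.4 and 113 CPM in oil libraries, and the groups overlapped (log2 fold change 0.33 ± 0.27, adjusted p = 0.384). Leaving out CON oil library 2 gave Cdh5 a log2 fold change of 0.76 in CON with an adjusted p of 0.0447. Pecam1, an adhesion molecule between endothelial cells that leukocytes and platelets also carry, had 274 and 344 CPM in KO E2 libraries and 305 and 441 CPM in KO oil libraries. In CON stroma Pecam1 had 378 and 422 CPM in E2 libraries and 289 and 513 CPM in oil libraries, and the E2 and oil libraries overlapped in both genotypes (adjusted p = 0.522 in KO and 0.996 in CON). Esam, an adhesion molecule at endothelial tight junctions that platelets also carry, had 373 and 490 CPM in KO E2 libraries, 468 and 470 CPM in KO oil libraries, 506 and 578 CPM in CON E2 libraries and 489 and 521 CPM in CON oil libraries. Averaged over genotypes its log2 fold change was -0.01 ± 0.13 (SE, adjusted p = 0.963). These 3 junction genes thus showed no change after E2 that exceeded the spread between libraries, beside a Cldn5 that changed about 4-fold in the same RNA.

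Among the receptors, Eng (chr2:32646595-32682669, plus strand) had 89.1 and 108 CPM in KO E2 libraries and 71.8 and 88.8 CPM in KO oil libraries. In CON stroma it had 114 and 107 CPM in E2 libraries and 65.2 and 75.1 CPM in oil libraries. Every E2 library was above every oil library, narrowly so in KO. Its log2 fold change was 0.66 ± 0.19 in CON (SE, adjusted p = 0.0298), 0.30 ± 0.19 in KO (adjusted p = 0.278) and 0.48 ± 0.13 averaged, a 1.39-fold rise (adjusted p = 0.0172). The call in CON ended without CON E2 library 1 (adjusted p = 0.136), CON E2 library 2 (0.0899) or CON oil library 1 (0.0803), and the averaged call ended without KO E2 library 2 (0.0749), KO oil library 1 (0.066) or CON E2 library 1 (0.0578). Eng is also present outside endothelium, in macrophages and some fibroblasts. The 14 macrophage markers found in the data summed to 208 to 348 CPM in E2 libraries and 159 to 222 CPM in oil libraries. Of the 17 fibroblast markers 13 were called higher and 2 lower averaged over genotypes, against 24.1% and 22.2% of all tested genes. Their part in the rise of Eng was not tested.

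Tek, the angiopoietin receptor, had 9.52 and 20.7 CPM in KO E2 libraries and 18.5 and 22.3 CPM in KO oil libraries. In CON stroma Tek had 13.1 and 18.6 CPM in E2 libraries and 16.2 and 29 CPM in oil libraries, and the groups overlapped in both genotypes (adjusted p = 0.465 in KO and 0.359 in CON). Tie1, the related receptor that modulates Tek, had 56.1 and 72.1 CPM in KO E2 libraries and 87.6 and 105 CPM in KO oil libraries, which did not overlap. The log2 fold change of Tie1 in KO was -0.59 ± 0.30 (SE, adjusted p = 0.179); it passed when the 2 KO groups were fitted alone (adjusted p = 0.0396) and when CON oil library 1 (adjusted p = 0.0324) or CON oil library 2 (0.0333) was left out. Averaged over genotypes Tie1 had -0.40 ± 0.21 (SE, adjusted p = 0.152), and -0.59 without CON oil library 1 (adjusted p = 0.00663). In CON stroma Tie1 had 72.1 and 72.4 CPM in E2 libraries and 55.6 and 112 CPM in oil libraries, with oil library 1 below and oil library 2 above the E2 pair (adjusted p = 0.627).

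Emcn (chr3:137341067-137432185, plus strand), a sialomucin on the surface of capillary and venous endothelium, had 90.9 and 110 CPM in KO E2 libraries and 82.1 and 78.4 CPM in KO oil libraries. In CON stroma Emcn had 114 and 122 CPM in E2 libraries and 61.3 and 93.5 CPM in oil libraries. Within each genotype the E2 libraries were higher without overlap. Its log2 fold change was 0.32 ± 0.22 in KO (SE, adjusted p = 0.312), 0.61 ± 0.22 in CON (adjusted p = 0.0653) and 0.46 ± 0.16 averaged, a 1.38-fold rise (adjusted p = 0.0359). In CON, leaving out 1 library gave Emcn 0.36 to 0.91, with a call without CON oil library 2 (adjusted p = 0.0107), and 1 of the 7 other fits made the call (adjusted p = 0.0451). The averaged call was fragile: it remained without CON oil library 2 (adjusted p = 0.00409) and ended without any 1 of the other libraries, with adjusted p of 0.0559 without KO E2 library 1, 0.125 without KO E2 library 2, 0.0748 without KO oil library 1, 0.0895 without KO oil library 2, 0.0731 without CON E2 library 1, 0.0957 without CON E2 library 2 and 0.0579 without CON oil library 1.

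Egfl7 (chr2:26580014-26593120, plus strand), a factor that endothelial cells secrete and whose gene also hosts an endothelial microRNA, had 498 and 554 CPM in KO E2 libraries and 659 and 690 CPM in KO oil libraries. In CON stroma Egfl7 had 569 and 602 CPM in E2 libraries and 821 and 824 CPM in oil libraries. All 4 E2 libraries were below all 4 oil libraries. The log2 fold change was -0.36 ± 0.16 in KO (SE, adjusted p = 0.138), -0.49 ± 0.16 in CON (adjusted p = 0.0504) and -0.42 ± 0.12 averaged, 1.34-fold lower (adjusted p = 0.0154). In CON, 3 of the 7 other fits of Egfl7 made the call, DESeq2 among them (adjusted p = 0.031), with adjusted p of 0.031 to 0.15 over the 7. The averaged call ended without KO E2 library 1 (adjusted p = 0.0809), KO oil library 2 (0.0524) or CON E2 library 1 (0.0649). Eng overlaps Fpgs and Egfl7 overlaps Agpat2, each on the opposite strand, in the GENCODE M21 annotation. Fpgs had 2085 reads and Agpat2 945 reads over the 8 libraries, and whether the counting used strand is not given in the sources used here.

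Sox18, a transcription factor of vascular and lymphatic development, was the member with the least even libraries. It had 13.3 and 6.3 CPM in KO E2 libraries, 1.26 and 6.61 CPM in KO oil libraries, 73.9 and 8.44 CPM in CON E2 libraries and 0.788 and 17.2 CPM in CON oil libraries. These are 74 and 39, 8 and 42, 530 and 55, and 5 and 97 reads. CON E2 library 1 stood above every other library, and both oil groups held a library with fewer than 10 reads. The log2 fold change after E2 was 1.30 ± 1.30 in KO (SE, adjusted p = 0.494) and 2.22 ± 1.18 in CON (adjusted p = 0.183). In CON it was -0.07 (adjusted p = 0.979) without CON E2 library 1 and 5.66 (adjusted p = 0.0238) without CON oil library 2, so its direction and call there depend on single libraries. Averaged over genotypes it was 1.76 ± 0.88 (SE, adjusted p = 0.128), and 3.49 without CON oil library 2 (adjusted p = 0.0119). With no filter on low counts Sox18 passed in CON (adjusted p = 0.0317) and averaged (adjusted p = 0.0143). Of the genes within 50000 bases of Sox18, 4 were in the files and 2 had enough reads to be tested (Tcea2 and Rgs19); neither was highest in CON E2 library 1.

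**Figure D2:**
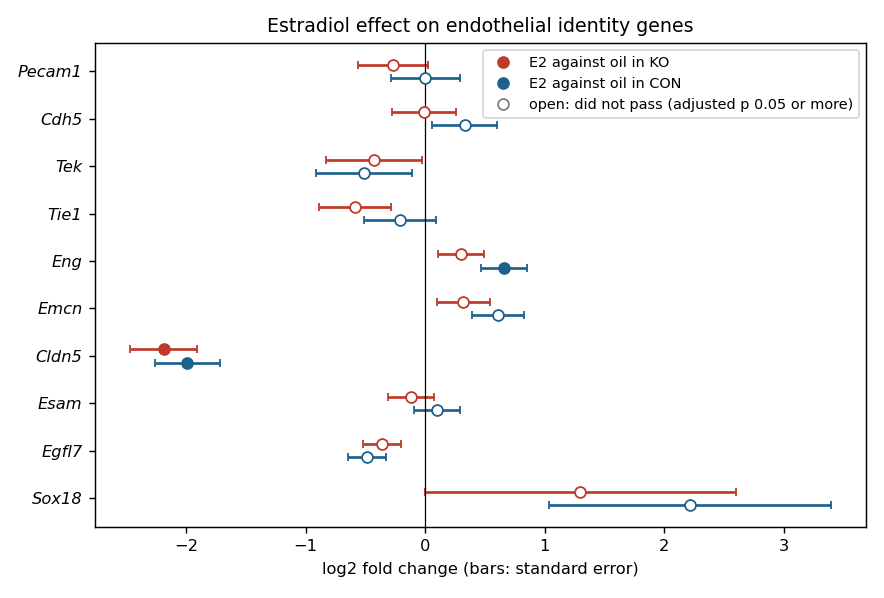
Log2 fold change of the 10 genes for E2 against oil (horizontal axis; bars are standard errors), in KO (red) and CON (blue); filled points had an adjusted p below 0.05 and open points did not. Cldn5 lies near -2 in both genotypes, Eng is filled in CON at 0.66, and the bars of Sox18 are the widest.

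The 3 sequences printed next are those of Cldn5, which fell, and of Eng and Emcn, which rose, since a shared element would be looked for in front of the genes that moved. Egfl7, which also fell averaged over genotypes, is described below without its sequences. RefSeq's table for GRCm38.p6 held windows for 6 of the 10 genes (Tek, Tie1, Eng, Emcn, Cldn5 and Egfl7), 8 windows in all because Egfl7 has 3 starts. Each sequence is the 250 bases before the start, read 5′ to 3′ on the gene's strand, which is the plus strand for all 3: chr16:18776597-18776846 for Cldn5, chr2:32646345-32646594 for Eng and chr3:137340828-137341077 for Emcn. Capitals mark AGGAAG or its reverse complement CTTCCT, a core of the sites that ETS factors such as Erg and Fli1 bind in endothelium.
Cldn5: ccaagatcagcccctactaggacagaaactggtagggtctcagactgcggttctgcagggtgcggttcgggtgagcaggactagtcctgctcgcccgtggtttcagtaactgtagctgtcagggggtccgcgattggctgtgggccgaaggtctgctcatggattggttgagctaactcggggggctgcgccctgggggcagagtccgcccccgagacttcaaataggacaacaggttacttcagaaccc
Eng: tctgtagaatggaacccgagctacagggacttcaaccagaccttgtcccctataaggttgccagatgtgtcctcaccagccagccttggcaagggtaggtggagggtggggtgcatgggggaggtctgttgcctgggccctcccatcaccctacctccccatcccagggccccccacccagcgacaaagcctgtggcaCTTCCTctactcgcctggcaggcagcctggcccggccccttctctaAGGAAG
Emcn: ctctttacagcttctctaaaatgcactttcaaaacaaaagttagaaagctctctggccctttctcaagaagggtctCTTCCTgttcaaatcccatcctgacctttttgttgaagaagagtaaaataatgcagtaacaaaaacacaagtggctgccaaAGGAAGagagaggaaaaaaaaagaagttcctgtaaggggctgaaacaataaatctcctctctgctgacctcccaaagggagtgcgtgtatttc

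Eng and Emcn each held 2 matches in these windows and Cldn5 held none. Egfl7, which was 1.34-fold lower after E2 averaged over genotypes against 4.26-fold for Cldn5, had matches in 2 of its 3 windows. Over the 8 windows, 5 held a match, those of Tie1, Eng and Emcn and 2 of the 3 of Egfl7, against 29.5% of all 32851 windows of that length in the table. A second ETS core, CCGGAA or its reverse TTCCGG, was in none of the 8 windows and in 12% of all windows. The full consensus estrogen response element, an inverted repeat of GGTCA with a gap of 3 bases, was in none of the 8 and in 0.0639% of all windows. Searches covered both strands, no match of 1 motif overlapped a match of another in the 8 windows, and a match is a string of letters, not a bound site.

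Levels within a library can also be set against Pecam1, which compares endothelial genes with each other in the same RNA. Cldn5 was 0.105 to 0.136 times the level of Pecam1 in the 4 E2 libraries and 0.404 to 0.511 times in the 4 oil libraries. Eng was 0.254 to 0.325 times the level of Pecam1 in E2 libraries and 0.147 to 0.235 times in oil libraries, and Emcn 0.289 to 0.331 times in E2 libraries and 0.178 to 0.269 times in oil libraries. For these 3 genes the E2 and oil ranges did not overlap. By level, 24.3% of all tested genes were higher and 21.5% lower without overlap over the same libraries. The share of all genes for ratios to Pecam1 was not computed. Within CON oil the ratio of Cldn5 was 0.47 and 0.473, although Pecam1 and Cldn5 each differed between the 2 libraries. The pairs of the other groups were less alike, at 0.511 and 0.404 in KO oil, 0.136 and 0.105 in KO E2 and 0.112 and 0.125 in CON E2. Egfl7 was 1.43 to 1.82 times the level of Pecam1 in E2 libraries and 1.56 to 2.84 times in oil libraries, and Esam 1.34 to 1.43 times in E2 libraries and 1.02 to 1.69 times in oil libraries. Tie1 was 0.172 to 0.21 times in E2 libraries and 0.192 to 0.287 times in oil libraries, Cdh5 0.22 to 0.345 times in E2 libraries and 0.192 to 0.243 times in oil libraries, and Tek 0.0347 to 0.0602 times in E2 libraries and 0.0506 to 0.0605 times in oil libraries. The ranges of these last 5 ratios overlapped. So did those of Sox18, at 0.0183 to 0.195 times in E2 libraries and 0.00273 to 0.0335 times in oil libraries. Such ratios show unequal change among the genes and not which of them changed.

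The deletion comparison asked whether the genes differed between KO and CON stroma under the same injection. None of the 10 passed the test after E2, after oil or averaged over treatments, and 0% of all 13347 tested genes were called in each of these comparisons. At an unadjusted p below 0.05, 403 genes (3.02%) differed after E2 and 339 (2.54%) after oil, none of them among the 10. By DESeq2 no gene was called after E2 or after oil, and 3 (0.0225%) were called averaged over treatments, none of them among the 10; there 543 genes (4.07%) had an unadjusted p below 0.05 by edgeR. After E2 the fitted change was below 0 in 10 of 10 genes, with a median log2 fold change of -0.28 against -0.01 over all tested genes, of which 52.1% were below 0. The KO E2 libraries lay entirely below the CON E2 libraries for Pecam1, Cdh5, Tie1, Emcn, Cldn5, Esam and Egfl7, which is 7 of 10 genes, against 18.2% of all tested genes. The 10 genes were read from the same 4 libraries and are not independent of each other.

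Apart from Sox18, the largest of these differences was that of Cdh5, with 81.2 and 77.1 CPM in KO E2 libraries and 130 and 92.7 CPM in CON E2 libraries (log2 fold change -0.50 ± 0.27 SE, unadjusted p = 0.103 by edgeR's quasi-likelihood test, adjusted p = 1). Pecam1 and Cldn5 each had a log2 fold change of -0.37, Esam -0.33, Emcn -0.23, Tie1 and Eng -0.17, Egfl7 -0.15 and Tek -0.06 for KO against CON after E2. Sox18 had -2.08 ± 1.17 (SE), and 0.21 without CON E2 library 1. Tek had 0.38 without KO E2 library 1 and 0.21 without CON E2 library 2. After oil 7 of 10 genes were below 0, with a median of -0.13, and 2 of 10, Esam and Egfl7, had KO oil libraries entirely below CON oil libraries, against 11.5% of all tested genes, and 0 of 10 had them entirely above, against 12.9%. Egfl7 had 659 and 690 CPM in KO oil libraries, against 821 and 824 CPM in CON oil libraries, a log2 fold change of -0.29 that did not pass. A p that misses the threshold with 2 libraries a group does not show that KO and CON stroma hold the same endothelial RNA.

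**Figure D3:**
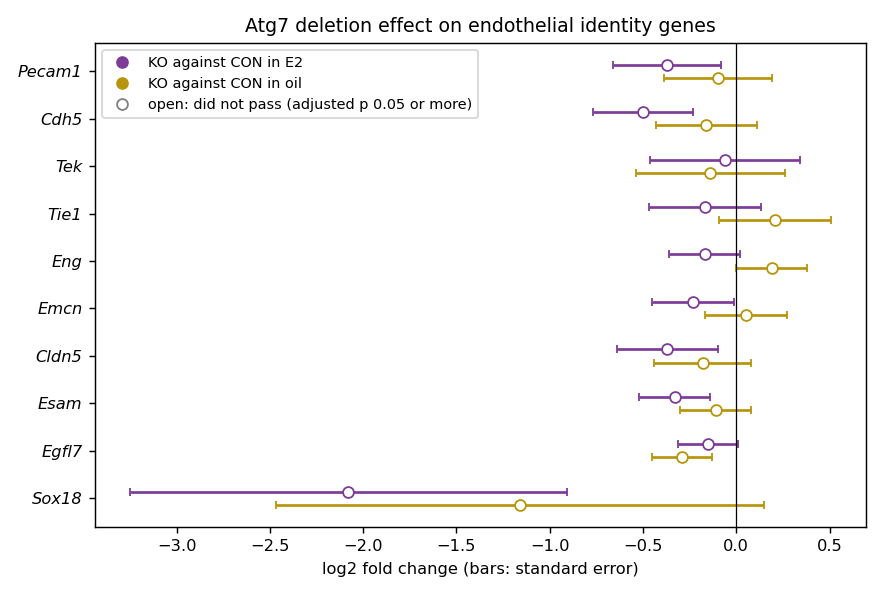
Log2 fold change of the 10 genes for KO against CON (horizontal axis; bars are standard errors), after E2 (purple) and after oil (ochre); all points are open because none had an adjusted p below 0.05. After E2 all 10 points lie below 0, from -0.06 for Tek to -2.08 for Sox18, and the bars of Sox18 are the widest.

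Whether E2 acted differently in the 2 genotypes was tested as the interaction, the E2 effect in KO minus that in CON. None of the 10 genes and 0% of all tested genes passed; 210 genes (1.57%) had an unadjusted p below 0.05, none of the 10 among them, and DESeq2 called 0. The differences ran from -0.92 for Sox18 to 0.13 for Egfl7 on the log2 scale. The smallest unadjusted p by edgeR was 0.21, for Eng, whose E2 effect was 0.30 in KO and 0.66 in CON. That Eng passed in CON and not in KO is therefore not a tested difference between genotypes.

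The oil libraries differed among themselves in a way that touches all 10 genes. In CON oil, library 2 was above library 1 for 10 of 10 genes, against 50.3% of all tested genes, with a median ratio of 1.76 and a range from 1 for Egfl7 to 21.8 for Sox18. In KO oil, library 2 was above library 1 for 9 of 10 genes, against 51.4%, with a median ratio of 1.17. After E2, library 2 was the higher for 7 of 10 genes in KO, against 52.3%, and for 7 of 10 in CON, against 55.3%. The sum of the epithelial markers ran the other way in oil, and was lower in library 2 than in library 1 of KO oil and of CON oil. After E2 it did not run the other way. In libraries 1 and 2 it was 1771 and 2455 CPM in KO and 1853 and 4555 CPM in CON. The 10 genes there summed to 1523 and 1818 CPM in KO and 2013 and 2077 CPM in CON. Whether the epithelial share sets the endothelial level in the oil libraries was not tested.

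Markers of other cells that could carry these genes were set beside them. Platelet and megakaryocyte markers, which share Pecam1 and Esam with endothelium, summed to 49.8 to 57.8 CPM in E2 libraries and 50.2 to 56.2 CPM in oil libraries, with Gp1ba, Gp9 and Gp6, 3 of 10, at 0 reads in every library. Of the 6 tested, 2 were called higher and 1 lower averaged over genotypes, against 24.1% and 22.2% of all tested genes. The 10 pericyte markers, for cells that wrap capillaries, summed to 568 to 678 CPM in E2 libraries and 500 to 608 CPM in oil libraries. Averaged over genotypes 4 of these 10 were called higher and 0 lower, against the same shares, so their overlapping sums do not show that each marker was unchanged. The 14 smooth muscle markers summed to 10373 to 13429 CPM in E2 libraries and 3621 to 7505 CPM in oil libraries; averaged over genotypes 8 of 14 were called higher and 1 lower, against 24.1% and 22.2% of all tested genes. The part of these cells in the endothelial levels was not tested.

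**Figure D4:**
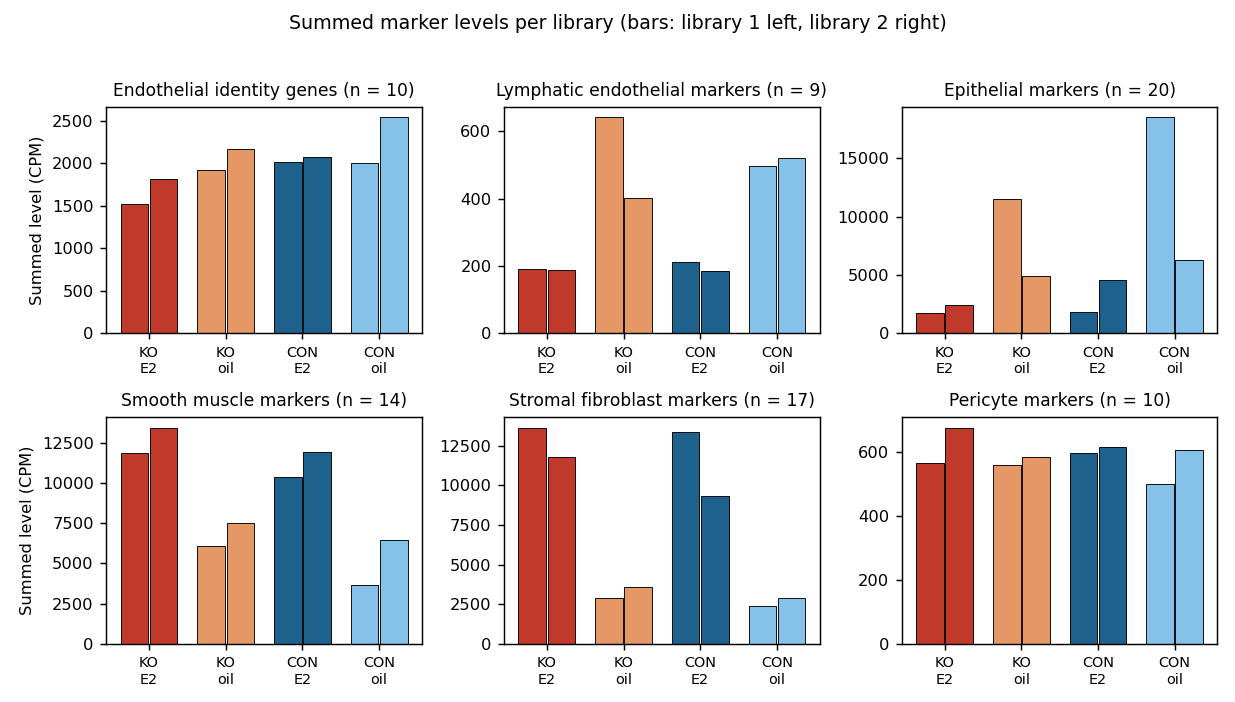
Summed level (vertical axes, CPM, each from 0) of 6 marker lists per library; in each group the left bar is library 1 and the right bar library 2. The endothelial identity genes stay between 1523 and 2540 CPM in all 8 libraries, while lymphatic and epithelial markers are lower and fibroblast and smooth muscle markers higher in all 4 E2 libraries.

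Wider lists of endothelial genes show how other parts of the same pathways moved after E2, averaged over genotypes, where 24.1% of all tested genes were called higher and 22.2% lower. Of the 9 VEGF and angiopoietin receptors and partners, 2 rose and 4 fell. The rises were in Nrp1, a VEGF coreceptor that stromal cells also carry (log2 fold change 1.05 ± 0.16 SE, adjusted p = 0.000829), and Flt1, a VEGF receptor that holds the ligand back (0.67 ± 0.14, adjusted p = 0.00508). Flt1 had 217 and 223 CPM in KO E2 libraries, 167 and 146 CPM in KO oil libraries, 249 and 266 CPM in CON E2 libraries and 118 and 171 CPM in CON oil libraries. Kdr, the main signalling receptor for VEGF, did not pass (-0.09 ± 0.16 SE, adjusted p = 0.685), with 181 to 242 CPM in E2 libraries and 163 to 268 CPM in oil libraries. Unc5b, a guidance receptor of endothelial tip cells, fell by 0.84 on the log2 scale (adjusted p = 0.0026), and Flt4, the VEGF receptor of lymphatic vessels, fell by 0.59 (adjusted p = 0.0123). The call of Flt4 ended without KO E2 library 1 (adjusted p = 0.0624) or KO oil library 1 (0.0508).

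Of the 9 tested ligands of these receptors, 1 rose and 4 fell. Vegfa, the main vessel growth factor, had 137 and 148 CPM in KO E2 libraries, 456 and 377 CPM in KO oil libraries, 141 and 122 CPM in CON E2 libraries and 699 and 420 CPM in CON oil libraries (log2 fold change -1.82 ± 0.18 SE, adjusted p = 0.000135). Adm, the vascular peptide adrenomedullin, had 126 and 165 CPM in KO E2 libraries, 1241 and 503 CPM in KO oil libraries, 124 and 232 CPM in CON E2 libraries and 2812 and 682 CPM in CON oil libraries (-2.94 ± 0.47, adjusted p = 0.00123). Both were highest in CON oil library 1, which also had the highest epithelial sum, and the part of epithelium in their fall was not tested. Angpt2, the angiopoietin that opposes Tek signalling and that endothelial cells make, fell by 0.83 (adjusted p = 0.00446), and Pgf, a ligand of Flt1, fell by 0.78 (adjusted p = 0.00481).

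Among 12 tested genes of the pathway that Eng serves, 0 rose and 5 fell, while Eng itself rose. Id2 and Id1, targets of BMP signalling, had log2 fold changes of -1.25 (adjusted p = 0.000146) and -1.17 (adjusted p = 0.00651). Smad5, which carries the signal, had -0.76 (adjusted p = 0.000999), and the receptor Acvr2b was 2-fold lower (adjusted p = 0.00632). These genes are active in many cell types. Among the pathway's other receptors, Acvrl1 (log2 fold change -0.12 ± 0.12 SE, adjusted p = 0.425) and Bmpr2 (-0.22 ± 0.11, adjusted p = 0.143) did not pass. Of 11 tested junction partners, 0 rose and 3 fell. Among those that fell were Jup (plakoglobin), with a log2 fold change of -0.93 (adjusted p = 0.00228), and the junction protein F11r, with -0.85 (adjusted p = 0.0192), both of which epithelial cells carry too. The call of F11r ended without KO E2 library 1 (adjusted p = 0.0823), KO oil library 1 (0.0715), CON E2 library 1 (0.0628) or CON E2 library 2 (0.058). Of 19 tested endothelial transcription factors, 0 rose and 6 fell. Klf2, which responds to blood flow, had 176 and 170 CPM in KO E2 libraries, 532 and 563 CPM in KO oil libraries, 205 and 176 CPM in CON E2 libraries and 461 and 498 CPM in CON oil libraries (2.82-fold lower, adjusted p = 6.34e-05). Sox17, a factor of arterial endothelium from the same subfamily as Sox18, had a log2 fold change of -0.91 (adjusted p = 0.00131), Hey1, a target of Notch, one of -1.13 (adjusted p = 0.000895) and Ets2, also present outside endothelium, one of -2.35 (adjusted p = 0.00115).

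Of 64 other blood endothelial genes, 18 rose and 16 fell after E2, and the median log2 fold change was -0.09. The count that fell was 8 without KO E2 library 1 and 8 without CON E2 library 1. Plvap, the protein of the diaphragms that span pores and caveolae of leaky endothelium, had 162 and 179 CPM in KO E2 libraries, 29.4 and 44.4 CPM in KO oil libraries, 169 and 175 CPM in CON E2 libraries and 24.1 and 35 CPM in CON oil libraries. It was 5.19-fold higher averaged over genotypes (log2 fold change 2.38 ± 0.18 SE, adjusted p = 5.63e-05). Ramp3, a subunit of adrenomedullin receptors, was 2.83-fold higher (adjusted p = 0.000169) and Cd34, a surface mucin that fibroblasts also carry, 2.62-fold higher (adjusted p = 0.000287). Car4, a carbonic anhydrase on capillary endothelium, had 0 and 1 reads in KO E2 libraries, 23 and 26 in KO oil libraries, 0 and 0 in CON E2 libraries and 53 and 74 in CON oil libraries, and it fell in the same test (adjusted p = 0.000142). For KO against CON after E2, 27 of the 64 had KO libraries entirely below CON libraries and 3 entirely above, against 18.2% and 16% of all tested genes, with a median of -0.21, and 0 were called.

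Lymphatic endothelial markers, genes that tell lymph vessels from blood vessels, fell together. All 9 tested were called lower averaged over genotypes, with a median log2 fold change of -1.61, 7 of 9 in KO, where 11.2% of all tested genes were called lower, and 6 of 9 in CON, where 14% were. Their sum was 190 and 189 CPM in KO E2 libraries, 641 and 401 CPM in KO oil libraries, 213 and 186 CPM in CON E2 libraries and 496 and 520 CPM in CON oil libraries. Every E2 library was below every oil library for each of the 9 genes, against 21.5% of all tested genes. Lyve1, the hyaluronan receptor of lymphatic vessels that some macrophages also carry, had 63.6 and 50.4 CPM in KO E2 libraries, 217 and 103 CPM in KO oil libraries, 55 and 41.4 CPM in CON E2 libraries and 121 and 197 CPM in CON oil libraries (log2 fold change -1.61 ± 0.26 SE, adjusted p = 0.00129). Reln, a secreted protein of collecting lymphatics, had a log2 fold change of -2.03 ± 0.20 (SE, adjusted p = 0.000126), Prox1, the factor that sets lymphatic identity, one of -1.79 ± 0.45 (adjusted p = 0.0107) and Mmrn1, a secreted multimerin, one of -1.23 ± 0.22 (adjusted p = 0.00184). Prox1 had few reads, at 0.614 to 1.53 CPM in E2 libraries and 2.12 to 5.83 CPM in oil libraries. Ccl21a, a chemokine of lymphatic vessels with near-identical copies that may share its reads, had -1.24 ± 0.17 (SE, adjusted p = 0.000519), and Pdpn, a surface sialoprotein, had -1.40 ± 0.24 (SE, adjusted p = 0.0016). Pdpn is also found on mesothelium. Of the mesothelial markers, Msln had 0 to 3 reads per library, Upk3b 0 or 1 and Calb2 none. Wt1 had 85 to 209 CPM and Gpm6a 5.33 to 34.5 CPM over the 8 libraries. Both of these, the 2 tested on that list, were called lower averaged over genotypes, against 22.2% of all tested genes. The part of mesothelium in the fall of Pdpn was not tested. For KO against CON, 0 of 9 were called after E2 or after oil.

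**Figure D5:**
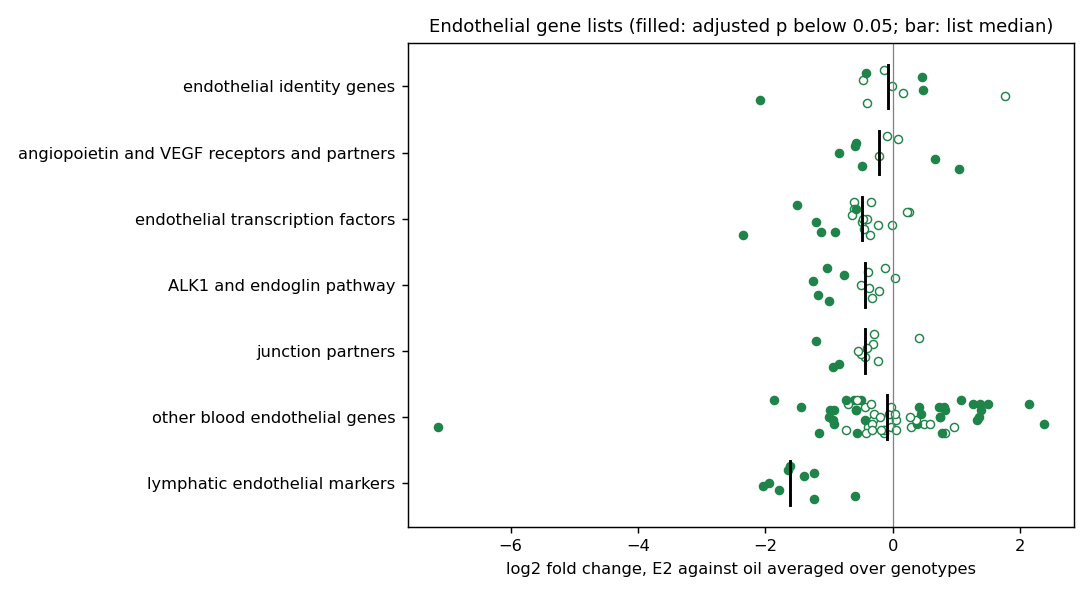
Log2 fold change for E2 against oil averaged over genotypes (horizontal axis) of each tested gene in 7 endothelial lists; filled points had an adjusted p below 0.05 and vertical bars are list medians. The identity genes centre on -0.07 and the other blood endothelial genes on -0.09, while all 9 lymphatic markers are filled and centre on -1.61; the point at -7.14 is Car4, whose fitted value depends on the small count added to libraries at 0.

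The genes most like the 10 over the 8 libraries were found from the median profile of the 10, each centred on its own mean of log2(CPM + 0.5). That profile was highest in CON oil library 2 (0.43) and lowest in CON oil library 1 (-0.38) and KO E2 library 1 (-0.37). Among 10685 genes with a mean of at least 5 CPM, the mean absolute difference from it was smallest for Rap2a (0.0726), Adgrf5 (0.075), Arhgef15 (0.0809), Serp2 (0.0849) and Mmrn2 (0.0876), followed by Stim2, Palmd, Nrros, Hcfc2 and Mtmr11 at 0.0884 to 0.0954. Adgrf5, Mmrn2 and Palmd stand on the list of other blood endothelial genes. Of the 10 genes themselves Pecam1 was closest to the profile (0.0792), and Cldn5 (0.99) and Sox18 (1.22) were farthest.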

How the data were processed

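RNA of 8 libraries was extracted with Trizol, and 500 ng went into a Lexogen Quant-Seq kit, per the labels' protocols. The authors deposited raw read counts per gene symbol; the unit was read from whole numbers with unequal totals. Bowtie2, edgeR and mm10 stand in the submitters' processing notes, without versions; the counter, strand setting and annotation were not given in the sources used here. Of 35 symbols on more than 1 line, none of them among the 10 genes, the line with most reads was kept, which left out 0.0973% of counts. Genes were kept by filterByExpr (minimum count 10, total 15). Counts were scaled by TMM (factors 0.918 to 1.03) and fitted with edgeR 4.0.16 (R 4.3.3), quasi-likelihood, with 4 group means and 7 contrasts; p-values were adjusted over 13347 genes (Benjamini-Hochberg, 0.05). The biological coefficient of variation was 21.8%. CPM are these scaled counts; DESeq2 1.42.0 was an alternative. The fits were tested on simulated data. Motifs and positions used RefSeq (GRCm38.p6) and GENCODE M21. Named are all 10 genes, up to 4 called genes per pathway list with the smallest adjusted p, leading markers of other cells by mean CPM, and the 10 genes of most like profile. Kdr, Acvrl1, Bmpr2, Prox1, Mmrn1, Reln, Tcea2, Rgs19 and the zero-read markers were added after their values were seen. The genes, lists and tests were chosen with earlier results of these data known.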

Additional observations from a re-analysis of the deposited data

How the results depend on the processing

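The call of Cldn5 held in each of the 6 other fits of all libraries and without each library. Among the 10 genes, E2 against oil in KO called 2 when the 2 groups were fitted alone and 1 to 2 without single libraries; in CON it called 1 with 2 groups alone and 1 to 5 without single libraries; averaged, it called 1 to 5. Over all genes, the counts without single libraries were 740 to 4345 (KO) and 1504 to 4168 (CON), with 2305 for the 2 CON groups alone. KO against CON averaged over treatments called 4 genes with no low-count filter, 3 by DESeq2 and 0 to 1 without single libraries. Other blood endothelial genes called lower after E2 numbered 8 to 20 without single libraries. Changes of sign, in log2 fold changes that did not pass, were as follows. E2 against oil in KO gave Cdh5 0.02 with library totals alone and 0.00 with no filter; in CON, Pecam1 was 0.04 with library totals alone; averaged, Esam was 0.04 with library totals alone. Without single libraries, E2 in KO ranged from -0.51 to 0.02 for Pecam1, -0.10 to 0.10 for Cdh5, -1.09 to 0.02 for Tek and -0.33 to 0.07 for Esam. E2 in CON ranged from -0.33 to 0.43 for Pecam1, -0.60 to 0.34 for Tie1 and -0.07 to 5.66 for Sox18, and averaged from -0.30 to 0.08 for Pecam1 and -0.11 to 0.09 for Esam. KO against CON after E2 ranged from -0.73 to 0.38 for Tek and -2.92 to 0.21 for Sox18. After oil it ranged from -0.43 to 0.34 for Pecam1, -0.47 to 0.27 for Cdh5, -0.47 to 0.30 for Tek, -0.18 to 0.76 for Tie1, -0.19 to 0.36 for Emcn, -0.50 to 0.27 for Cldn5 and -2.79 to 2.26 for Sox18. The cause was not tested. All 9 lymphatic markers were called lower in the 6 other fits, and 8 or 9 without single libraries; this alternative was added after seeing the data.

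Libraries of different groups share replicate numbers. Between same-numbered libraries of KO oil and CON oil, their deviations from the group means correlated at 0.494. For the other pairs of groups the correlations were -0.231 to 0.23. The main fit did not take the numbers to pair samples, although the same-numbered oil libraries shared part of their deviation. The cause of that likeness was not tested. A fit with the number as replicate block called 4 of the 10 genes for E2 against oil in CON (Emcn and Egfl7 besides Eng and Cldn5), against 2 without it, and gave Pecam1 there a log2 fold change of 0.05.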
